A study of Mus musculus with 8 samples.

Results

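Described here are 7 genes that mark neutrophils and red blood cells, measured in skeletal muscle of Eif6+/- and WT mice. They are S100a8 and S100a9, which encode the subunits of calprotectin, the beta-globin genes Hbb-bs and Hbb-bt, the alpha-globin genes Hba-a1 and Hba-a2, and Alas2, the red cell enzyme that starts heme synthesis. They were chosen by name out of the 20660 genes that could be named on the arrays, with earlier results of these data known, and S100a9 and Hbb-bs were selected from their log2 ratios in tibialis anterior (TA). Their TA values are therefore given as a description with no test, and gastrocnemius is the muscle in which they were tested. The labels do not say whether the same mice gave both muscles, so the gastrocnemius tests may not be independent of that selection. Each gene had 1 probe, 7 of the 55681 probes on the array.

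The mice were male C57BL6 littermates aged 8 to 16 weeks. The Eif6+/- mice carry 1 inactivated copy of Eif6, a factor of ribosome assembly and translation, in every cell of the body, blood cells included, and the WT mice carry none. Total RNA from frozen gastrocnemius or TA of 1 Eif6+/- mouse and 1 WT mouse, paired at random, was set together on each of 8 Agilent arrays, 4 arrays (pairs 1 to 4) for each muscle. A value below is the log2 ratio of Eif6+/- over WT on an array, so that a value below 0 means less signal in the Eif6+/- mouse, and a level is the normalized log2 signal of 1 mouse.

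By the labels all 8 arrays carried Eif6+/- RNA in Cy5 and WT RNA in Cy3, while the methods name Cy3 alone, and no array had the dyes exchanged. Dye and genotype therefore cannot be told apart within a muscle. All arrays lay on 1 slide with gastrocnemius in 1 row and TA in the other, so a difference between muscles cannot be told apart from one between slide rows, and 4 arrays a muscle limit the precision.

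Neutrophils are short-lived white blood cells that leave the circulation for injured or infected tissue. Calprotectin, the calcium- and zinc-binding pair of S100a8 and S100a9, is among their most abundant cytosolic proteins, and outside the cell it acts as an alarm signal on TLR4 and RAGE. Red blood cells carry haemoglobin, built of alpha and beta globin chains with a heme group each. Young red cells, the reticulocytes, still hold globin and Alas2 mRNA, and whole muscle brings along the blood left in its vessels.

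The label of the mice was checked on Eif6 itself. Its log2 ratios were −0.97, −1.15, −0.89 and −1.06 in gastrocnemius pairs 1 to 4 and −1.22, −1.03, −0.95 and −0.80 in TA. Every Eif6+/- mouse lay below every WT mouse in both muscles. The mean was −1.02 ± 0.11 (SD, n = 4 pairs) in gastrocnemius with a limma adjusted p of 0.0241, and −0.999 ± 0.17 in TA with an adjusted p of 0.0109. The other Eif6 probe gave −1.13 and −1.12. The files do not say whether the probes lie in the part of Eif6 that was inactivated.

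The tissue label was checked on 16 skeletal muscle genes, among them Acta1, Tnnt3 and Pvalb, the 3 of highest signal. All 16 passed the filter on dim probes in both muscles, that is, on each of the 4 arrays of a muscle Cy3 or Cy5 (or both) was well above background. Of the 7 blood genes, 5 passed in gastrocnemius (all but S100a8 and S100a9) and 6 passed in TA (all but S100a8).

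Means of the log2 ratio lay below 0 for 6 of the 7 genes in gastrocnemius and for 7 of 7 in TA, where some of the genes were chosen. Over all kept genes 46.1% of the means lay below 0 in gastrocnemius and 46.0% in TA. In gastrocnemius Hba-a2 lay above 0, and below it with Agilent's processed signals and without pair 1, while Hbb-bt, at −0.05 with 3 of 4 arrays above 0, lay above it without pair 3. Counted array by array, 20 of 28 values lay below 0 in gastrocnemius and 26 of 28 in TA. The genes below 0 on all 4 arrays numbered 2 in gastrocnemius (Hba-a1 and Alas2) and 6 in TA (all but Hba-a2). By limma, 0 of the 5 genes that could be tested in gastrocnemius were called at an adjusted p under 0.1. At an unadjusted p under 0.05, 3 of them passed (Hbb-bs, Hba-a1 and Alas2), each lower in Eif6+/- mice, as were 1474 of 12609 genes at that threshold (11.7%), and SAM, the test named in the methods, called 0. Over all probes of gastrocnemius 3275 of 23802 were called (13.8%), and over genes 697 of 12609 were called lower (5.53%) and 1242 higher (9.85%). In TA 902 of 12381 genes were called lower (7.29%) and 1112 higher (8.98%), and nothing is read from these shares for the 7 genes, since TA chose some of them. These counts depend on single arrays. Without gastrocnemius pair 3, or without pair 4, no probe was called in that muscle, Eif6 included, and without pair 2 the calls numbered 2171. In TA 3555 probes were called with all arrays, 113 without pair 1, 916 without pair 2 and 1937 without pair 3.

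**Figure D1:**
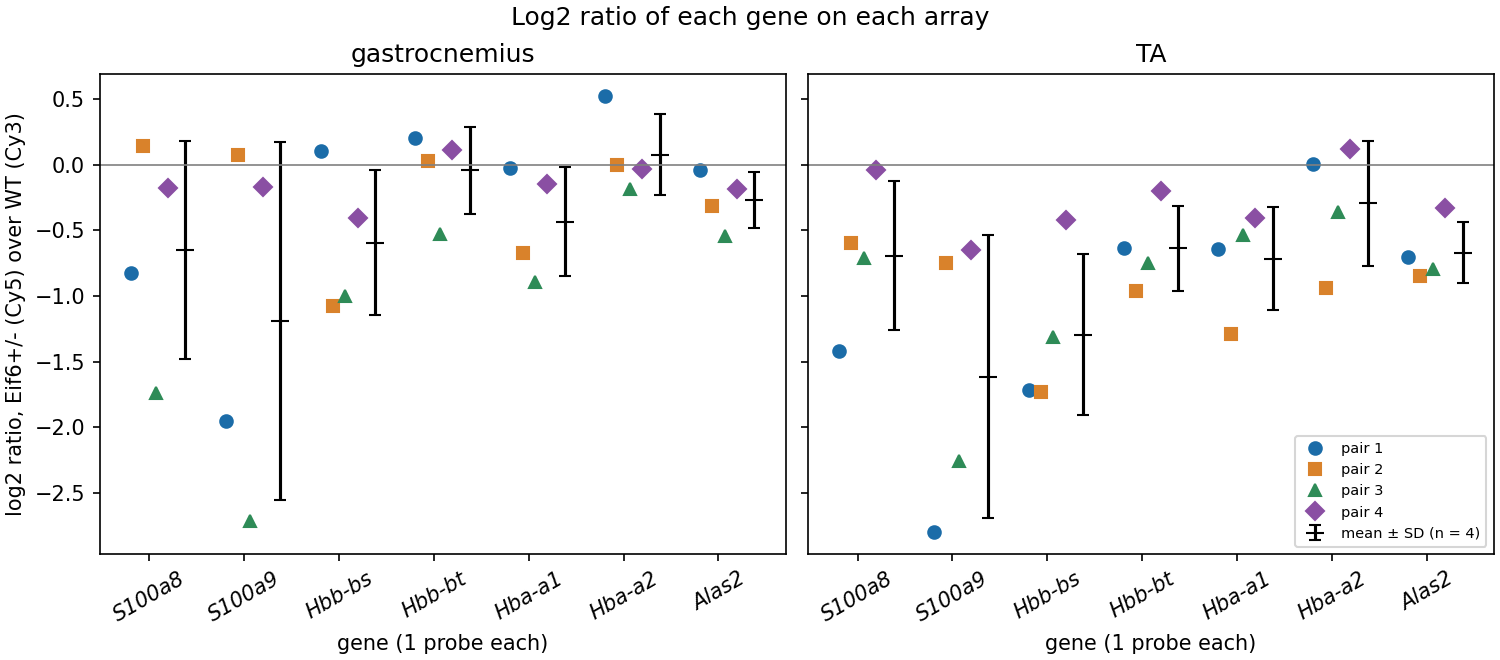
Log2 ratio of Eif6+/- over WT (vertical axis) of the 7 genes on each gastrocnemius and TA array, with 1 marker for each pair and bars for the mean ± SD (n = 4). S100a9 spans −2.71 to 0.08 in gastrocnemius and −2.80 to −0.65 in TA, the widest of the 7 in both muscles.

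S100a9 encodes the larger subunit of calprotectin. Its log2 ratios in gastrocnemius were −1.95 in pair 1, 0.08 in pair 2, −2.71 in pair 3 and −0.17 in pair 4. In TA they were −2.80, −0.75, −2.26 and −0.65. Pairs 1 and 3 were the low ones in both muscles, and pairs 2 and 4 lay near 0 in gastrocnemius. The labels do not say whether a pair number stands for the same mice in both muscles. The mean was −1.19 ± 1.36 (SD, n = 4 pairs) in gastrocnemius, an Eif6+/- signal at 43.9% of WT, and −1.61 ± 1.08 in TA, at 32.7% of WT. As gastrocnemius pair 4 was dim in both channels, the mean and the percentage there are not exact. Without pair 3 the gastrocnemius mean was −0.68. With Agilent's processed signals the means were −1.75 in gastrocnemius and −2.66 in TA. In a bulk sample of muscle, fewer cells of a type and less RNA per cell cannot be told apart.

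The spread lay on the WT side in gastrocnemius. The WT mice of pairs 1 to 4 had S100a9 levels of 8.20, 6.62, 9.55 and 6.42 (SD 1.47), and their Eif6+/- partners had 6.25, 6.69, 6.83 and 6.25 (SD 0.30). The raw Eif6+/- signals there were 71 to 121, over backgrounds of 37 to 40. Signals this close to background cannot spread far downward, and the difference in spread was not tested. The WT mice of pairs 1 and 3 stood apart, while the WT mice of pairs 2 and 4 lay among the Eif6+/- mice, so the groups overlapped. In TA the WT levels were 9.13, 8.33, 8.84 and 7.14, and the Eif6+/- levels were 6.34, 7.58, 6.58 and 6.49. There 3 WT mice lay above every Eif6+/- mouse and the WT mouse of pair 4 lay below the Eif6+/- mouse of pair 2.

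S100a9 was well above background in 3 of 4 gastrocnemius mice of each genotype, pair 4 being dim in both channels, and in all 8 TA mice. Because of pair 4 it did not enter the gastrocnemius test. With no filter on dim probes its limma adjusted p in gastrocnemius was 0.200, with 3 of 4 arrays below 0, and without pair 4 it was 0.199.

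S100a8, the smaller calprotectin subunit, was dim. Ratios of −0.82, 0.14, −1.74 and −0.18 in gastrocnemius and −1.42, −0.59, −0.71 and −0.04 in TA were measured on the log2 scale. As for S100a9, pairs 1 and 3 were the low ones in gastrocnemius and pair 2 lay above 0. Of the gastrocnemius samples 0 of 4 Eif6+/- mice and 2 of 4 WT mice (pairs 1 and 3) were well above background, and of the TA samples 1 of 4 Eif6+/- mice (pair 2) and 3 of 4 WT mice (all but pair 4).

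The WT levels of S100a8 were 6.72, 6.03, 7.71 and 6.15 in gastrocnemius and 7.37, 6.94, 6.76 and 6.15 in TA. The Eif6+/- levels lay between 5.90 and 6.17 in gastrocnemius and between 5.95 and 6.34 in TA. The groups overlapped in both muscles. The mean log2 ratios were −0.65 ± 0.83 and −0.69 ± 0.57 (SD, n = 4 pairs). With signals at background in the 4 Eif6+/- mice and in WT mice 2 and 4, the gastrocnemius value is not exact and rests on pairs 1 and 3. Without pair 3 it was −0.29, and in TA the mean was −0.45 without pair 1. The size of these values depends on the treatment of background, and with Agilent's own processed signals they were −2.34 and −2.52. With no filter the limma adjusted p in gastrocnemius was 0.245.

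**Figure D2:**
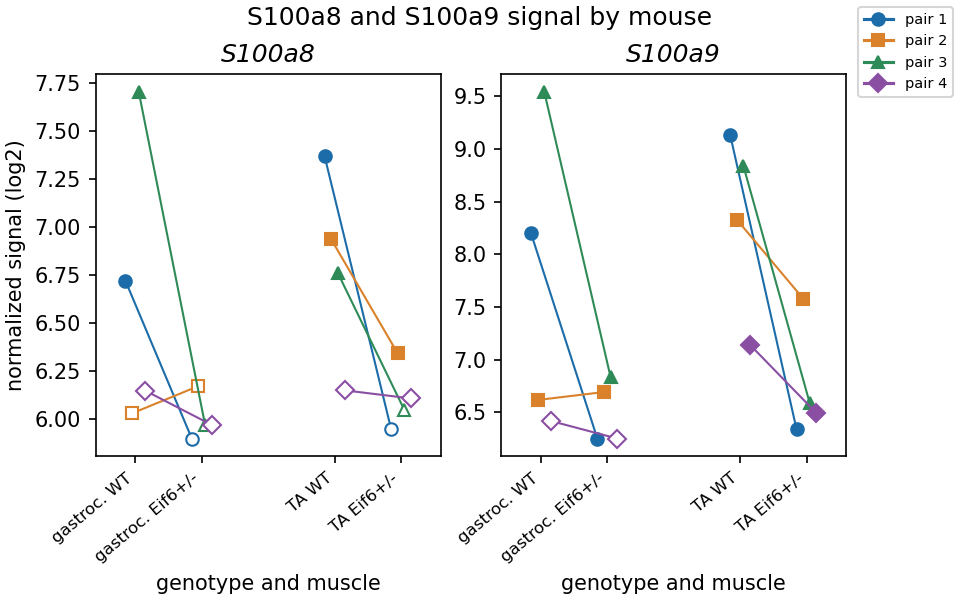
Normalized log2 signal (vertical axis) of S100a8 and S100a9 in each mouse, with lines joining the mice of a pair, filled markers for signals well above background and open markers for signals that were not. For S100a9 in gastrocnemius the Eif6+/- mice lie between 6.25 and 6.83 and the WT mice between 6.42 and 9.55.

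Over the 8 arrays the ratios of S100a8 and S100a9 moved together (Pearson r = 0.918, a description over 8 arrays that share a slide). S100a8 was not well above background in 7 of 8 Eif6+/- and 3 of 8 WT mice, so most of its ratios depend on the background and nothing more is read from this r. The genes lie near each other on chromosome 3 and encode 1 protein complex, and the 250 bases before each start are shown here as a description. They come from RefSeq, build GRCm38.p6, and all 7 genes had an entry. Capitals mark matches, on either strand, to AGATAA (here the GATA motif), to CACCC (the CACCC box, read by Klf1 and its relatives), to CCAAT (the CCAAT box), to TATAA (the TATA box) and to GAGGAA (the motif of PU.1, a factor of myeloid cells). S100a8 lies at chr3:90668821-90669070 on the plus strand and S100a9 at chr3:90695722-90695971 on the minus strand.
S100a8: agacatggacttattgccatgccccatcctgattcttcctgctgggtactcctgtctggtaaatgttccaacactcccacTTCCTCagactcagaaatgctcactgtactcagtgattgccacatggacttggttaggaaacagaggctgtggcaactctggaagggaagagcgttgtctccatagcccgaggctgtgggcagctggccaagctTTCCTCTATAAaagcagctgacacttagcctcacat
S100a9: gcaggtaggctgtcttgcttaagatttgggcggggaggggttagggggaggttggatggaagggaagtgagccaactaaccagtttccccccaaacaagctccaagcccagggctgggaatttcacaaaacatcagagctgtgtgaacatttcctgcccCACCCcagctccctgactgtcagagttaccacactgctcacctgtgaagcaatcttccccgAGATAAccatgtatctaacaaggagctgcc
S100a8 held 2 PU.1 motifs, both on the opposite strand, and 1 TATA box, which adjoins the nearer of them without a shared base. S100a9 held 1 GATA motif and 1 CACCC box and none of the other letters. Among all 32851 promoters of that length 23.3% held the PU.1 motif, 22.8% the TATA box, 9.99% the GATA motif, 52.0% the CACCC box and 33.8% the CCAAT box. A match describes letters and not a bound site.

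Few other neutrophil genes passed the filter. Of 44 further neutrophil genes with a probe, 13 passed the filter in gastrocnemius, where 1 was called lower and 1 higher, and 12 passed in TA, where 2 were called lower and 1 higher. Itgb2, the shared beta chain of the leukocyte integrins, fell in both muscles, with means of −0.59 ± 0.47 and −0.24 ± 0.12 and all 4 arrays below 0 in each. The call higher in each muscle was Mcemp1, a surface protein of myeloid and mast cells. It was well above background in all 8 Eif6+/- mice but in 1 of 4 WT mice of gastrocnemius and 0 of 4 of TA, so it passed the filter through the Eif6+/- mice alone and its ratio has no exact size. Camp, the cathelicidin of neutrophil granules, was called lower in TA, with 4 of 4 WT and 2 of 4 Eif6+/- mice above background. Its ratio therefore has no exact size there, and Camp was not called whichever pair was left out. It lay at 0.03 ± 0.14 in gastrocnemius.

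The filter left out 31 neutrophil genes in gastrocnemius, most of their signals at or near background, so their ratios have no exact size and were not tested. Their median was −0.18, 0.03, −0.16 and −0.05 in pairs 1 to 4, with 27, 14, 27 and 18 of the 31 below 0. In TA 32 were left out, with medians of −0.02, −0.03, −0.05 and −0.02 and 20, 18, 20 and 17 of them below 0, so pairs 1 and 3 did not stand apart there as they did for S100a9. Chil3, a chitinase-like protein of myeloid cells, the lectin Clec4d and Slpi, an inhibitor of neutrophil elastase, were the lowest in pairs 1 and 3 and were picked out after their values were seen. In gastrocnemius each was well above background in 2 of 4 WT mice, and Chil3 was in 3 of 4 Eif6+/- mice and the others in 0 of 4.

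The neutrophil gene of highest signal was Csf3r, the receptor for the growth factor of the neutrophil line. Its gastrocnemius WT levels were 12.50 to 13.06, while several genes of mature neutrophils, named below, never left background. Which cells gave the Csf3r signal was not tested. Its log2 ratios were 0.45, 0.08, −0.21 and 0.42 in gastrocnemius and 0.21, −0.04, 0.25 and 0.04 in TA. It was not called in either muscle, and pair 1, low for S100a9, gave its highest value in gastrocnemius. Alox5ap, a protein of leukotriene synthesis in leukocytes, had −0.99, 0.31, −0.94 and −0.23 in gastrocnemius, low in the same pairs as S100a9, and −0.02 on average in TA. Itgam and Anxa1 were next by signal, with means of −0.08 and −0.11 in gastrocnemius and 0.01 and 0.53 in TA, and neither was called.

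The median ratio of the kept neutrophil genes was 0.04, 0.03, −0.25 and 0.03 in gastrocnemius pairs 1 to 4 and 0.02, −0.09, 0.02 and 0.10 in TA. The log2 ratio of the summed signal of all 44 genes with a probe was 0.15, 0.04, −0.32 and 0.24 in gastrocnemius and 0.14, −0.05, 0.20 and 0.07 in TA. Csf3r was a large part of these sums. In the gastrocnemius WT mice its levels were 12.50 to 13.06 and the log2 sums 13.80 to 14.21. Gastrocnemius pair 3 had the lowest value by both measures. Several genes that define mature neutrophils and their granules were never well above background on any array of either muscle, namely Ngp, Ltf, Mmp8, Cxcr2, Cd177 and Cebpe, and in TA Mpo and Retnlg were not either. In all, 15 of 44 neutrophil genes were never above background in gastrocnemius and 20 in TA.

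S100a8 and S100a9 belong to a large family of calcium-binding proteins, and 15 other genes of the S100 list had a probe, 1 of them (S100pbp, which did not pass the filter) for a protein that binds S100P and is not of the family. Of the 10 that passed the filter in gastrocnemius 2 were called lower and 1 higher, and of the 10 in TA also 2 lower and 1 higher. At an unadjusted p under 0.05 they were 6 lower and 1 higher in gastrocnemius and 2 lower and 1 higher in TA, and the list's medians were −0.27 and −0.0069. S100a11, a widely expressed member, fell by 0.60 on the log2 scale in gastrocnemius (SD 0.25, n = 4 pairs, limma adjusted p 0.0350), with −0.97 in pair 3 against −0.47 to −0.48 in the others, and lay at 0.07 ± 0.37 in TA. S100a13 fell in gastrocnemius (−0.26 ± 0.08). In TA the called decreases were S100a1, a calcium sensor of striated muscle (−0.54 ± 0.29), and S100b (−0.35 ± 0.32). The call higher in each muscle was S100a7a, which was well above background in 4 of 4 Eif6+/- mice and 0 of 4 WT mice of each muscle. It passed the filter through the Eif6+/- mice alone, and its ratio has no exact size. S100a6, the S100 gene of highest signal, was not called, with means of −0.39 and −0.03, nor was S100a16, with −0.21 and −0.13.

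Among 11 genes for receptors of calprotectin and their signalling 8 passed the filter in each muscle. Cd14, the co-receptor of TLR4 on monocytes and macrophages, fell in gastrocnemius with values of −0.83, −0.19, −1.21 and −0.28, and lay at −0.01 ± 0.11 in TA. Bsg, a surface protein that binds S100A9 and carries lactate transporters to the membrane, fell in gastrocnemius (−0.62 ± 0.55) and in TA (−0.43 ± 0.29). Cd36 and Irak1, also high in signal, were not called, with gastrocnemius means of −0.03 and −0.10. By limma 0 genes of this list were called higher in either muscle, SAM called 0, and at an unadjusted p under 0.05 there were 0 higher in gastrocnemius and 1 in TA. The median ratio was −0.15 in gastrocnemius and −0.07 in TA, beside 0.02 over all genes in each muscle.

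The macrophage genes had low ratios on the same gastrocnemius arrays as S100a9. Of 20 monocyte and macrophage genes 17 passed the filter in each muscle, and their median ratio was −1.34, 0.12, −1.62 and −0.02 in gastrocnemius pairs 1 to 4. In TA it was 0.12, −0.42, 0.26 and −0.17. Pairs 1 and 3 were thus low for macrophage genes in gastrocnemius but not in TA, whereas S100a9 was low in pairs 1 and 3 of both. Arrays of the same number in both muscles are not known to hold the same mice, so this only describes the arrays. The log2 ratio of summed signal behaved alike, at −1.16, 0.13, −1.59 and −0.06 in gastrocnemius and 0.38, −0.38, 0.21 and −0.02 in TA. The part of macrophage RNA in the S100a8 and S100a9 values was not tested.

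By limma 2 macrophage genes were called lower in gastrocnemius, Cd74, the invariant chain of MHC class II (−1.10 ± 0.67, adjusted p 0.0450), and C1qc, a complement subunit (−0.79 ± 0.71). At an unadjusted p under 0.05, 7 of the 17 were lower and 0 higher in gastrocnemius, and 2 were lower and 2 higher in TA. Over all genes 11.7% were lower at that threshold in gastrocnemius, and nothing is read from the other counts. Lyz2, the lysozyme of macrophages and neutrophils, had −1.40, 0.20, −1.97 and −0.12 in gastrocnemius and −0.05 on average in TA. Adgre1, a receptor that marks mature macrophages, had −1.22, 0.90, −1.14 and 0.25. In TA C1qb fell (−0.46 ± 0.31) and Lyz1 rose (0.60 ± 0.43). The genes of highest signal, H2-Ab1, H2-Eb1 and Csf1r, were not called, with gastrocnemius means of −0.40, −0.55 and −0.35. No macrophage gene with a probe lacked signal in gastrocnemius, and Cd163 alone did in TA.

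**Figure D3:**
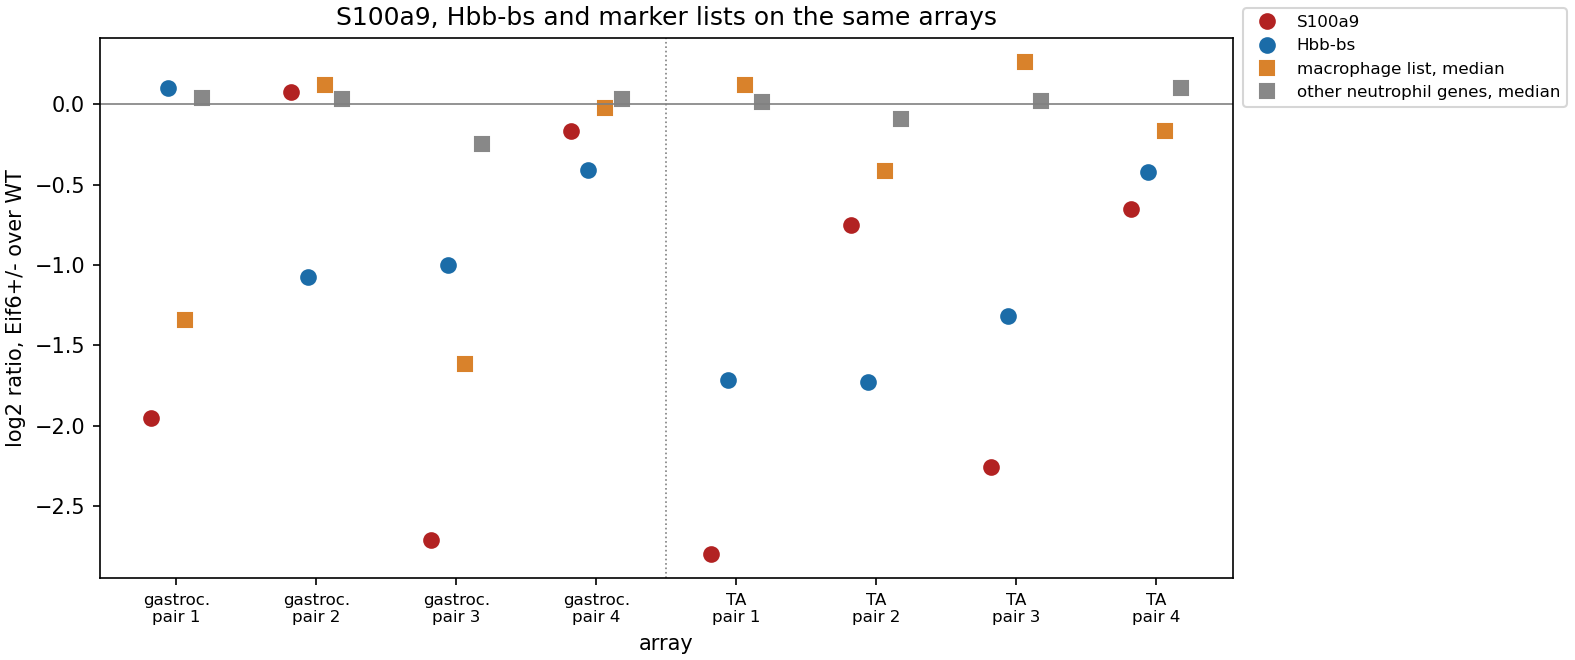
Log2 ratio of Eif6+/- over WT (vertical axis) on each of the 8 arrays (horizontal axis) for S100a9 and Hbb-bs (circles), with the median over the kept monocyte and macrophage genes and over the kept neutrophil genes without S100a8 and S100a9 (squares). The monocyte and macrophage list lies at −1.34 and −1.62 in gastrocnemius pairs 1 and 3 and at 0.12 and 0.26 in the TA arrays of those numbers.

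The red cell genes had another pattern over the arrays than the calprotectin pair. Hbb-bs encodes an adult beta globin chain of C57BL6 mice. In gastrocnemius its log2 ratios were 0.10, −1.08, −0.998 and −0.41, and in TA they were −1.72, −1.73, −1.31 and −0.42. Pair 1, where S100a9 was low in gastrocnemius, lay above 0 there, and in TA pair 4 was the nearest to 0. The mean was −0.59 ± 0.55 (SD, n = 4 pairs) in gastrocnemius, 66.2% of WT, with a standard error of 0.189 and a limma adjusted p of 0.105, and −1.30 ± 0.61 in TA, 40.7% of WT.

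In gastrocnemius the WT mice had Hbb-bs levels of 9.82, 11.06, 10.82 and 10.39 and the Eif6+/- mice had 9.92, 9.99, 9.82 and 9.98. The WT mouse of pair 1 lay with the Eif6+/- mice and the other 3 lay above all of them. In TA the WT levels were 11.20, 10.56, 10.24 and 10.11 and the Eif6+/- levels 9.48, 8.83, 8.93 and 9.69, with no overlap.

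Hbb-bt encodes the other adult beta chain of this strain. On the log2 scale its ratios were 0.20, 0.03, −0.53 and 0.11 in gastrocnemius and −0.64, −0.96, −0.75 and −0.20 in TA. In gastrocnemius only pair 3 lay below 0, and in TA all 4 did. The mean was −0.05 ± 0.33 in gastrocnemius (limma adjusted p 0.847) and −0.64 ± 0.32 in TA, 64.3% of WT. Without pair 3 the gastrocnemius mean was 0.11. In TA the WT mice (12.59 to 13.02) and the Eif6+/- mice (11.71 to 12.39) did not overlap.

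Hba-a1 encodes an adult alpha chain. Its log2 ratios were −0.03, −0.67, −0.90 and −0.15 in gastrocnemius and −0.64, −1.29, −0.54 and −0.40 in TA. All 8 lay below 0, with pairs 2 and 3 lowest in gastrocnemius and pair 2 lowest in TA. The mean was −0.44 ± 0.41 in gastrocnemius (73.9% of WT, standard error 0.149, limma adjusted p 0.122, −0.28 without pair 3) and −0.72 ± 0.39 in TA (60.8% of WT). WT levels of 13.41, 14.17, 14.29 and 13.75 overlapped Eif6+/- levels of 13.38, 13.50, 13.39 and 13.60 in gastrocnemius. In TA the WT mice (13.72 to 14.03) lay above all Eif6+/- mice (12.69 to 13.52).

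Hba-a2 is the other copy of the alpha gene, and its log2 ratios were 0.52, 0.00, −0.18 and −0.04 in gastrocnemius and 0.01, −0.94, −0.36 and 0.12 in TA. Values of both signs occurred in each muscle and the groups overlapped in both. The mean was 0.08 ± 0.31 in gastrocnemius (limma adjusted p 0.724) and −0.29 ± 0.48 in TA. The TA mean was −0.079 without pair 2 and −0.61 with Agilent's processed signals. The sign in gastrocnemius turned with Agilent's processed signals (−0.23) and without pair 1 (−0.07). Quantile normalization returns exactly 0 where a probe holds the same rank in both channels, as in gastrocnemius pair 2. The raw Cy5 signal of this probe was 80547 to 84982 on the 4 gastrocnemius arrays while its Cy3 signal ran from 21735 to 39371, and TA pairs 1 and 4 had Cy5 signals of 83457 and 80725. No spot was marked as saturated, and whether the scanner compresses such signals is not known.

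The globin probes may not read their genes alone. Hba-a1 and Hba-a2 encode nearly the same mRNA, as do Hbb-bs, Hbb-bt and Hbb-b2, and the files hold no probe sequences, so which transcript each probe bound is uncertain. The Hbb-b2 probe, a further beta-globin probe outside the 7 genes, gave 0.20, −0.50, −0.58 and −0.21 in gastrocnemius (mean −0.27 ± 0.35, limma adjusted p 0.238) and −0.80, −1.30, −0.73 and −0.17 in TA (mean −0.75 ± 0.46), and it tracked Hbb-bs over the 8 arrays (r = 0.952). As it may bind the same transcripts as Hbb-bs, its TA value is not independent of the choice of genes.

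Alas2 encodes the form of aminolevulinate synthase that red cell precursors use. Its log2 ratios were −0.04, −0.31, −0.55 and −0.19 in gastrocnemius and −0.70, −0.85, −0.79 and −0.33 in TA. All 8 lay below 0, and pair 4 was nearest to 0 in TA as for Hbb-bs. The mean was −0.27 ± 0.21 in gastrocnemius (82.8% of WT, standard error 0.0956, limma adjusted p 0.129, −0.18 without pair 3) and −0.67 ± 0.23 in TA (62.9% of WT). Gastrocnemius WT levels were 8.11, 8.46, 8.59 and 8.25 against 8.07, 8.15, 8.05 and 8.06 in Eif6+/- mice, so that the WT mouse of pair 1 lay among the Eif6+/- mice. In TA the WT levels (8.32 to 8.79) and the Eif6+/- levels (7.47 to 8.08) did not overlap.

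The 3 genes past an unadjusted p under 0.05 in gastrocnemius depended on pair 1, the array with the values nearest to 0 or above it. Without pair 1 all 3 were called by limma, Hbb-bs with a mean of −0.83, Hba-a1 with −0.57 and Alas2 with −0.35. Over all probes 2955 of 23983 were called without pair 1, 1357 of them lower. Over the 4 ways of leaving out an array the adjusted p ran from 0.0407 to 0.329 for Hbb-bs, from 0.0716 to 0.352 for Hba-a1 and from 0.0943 to 0.364 for Alas2. The means of Hbb-bs, Hba-a1 and Alas2 stayed below 0 under every normalization, background and filter setting tried in both muscles.

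**Figure D4:**
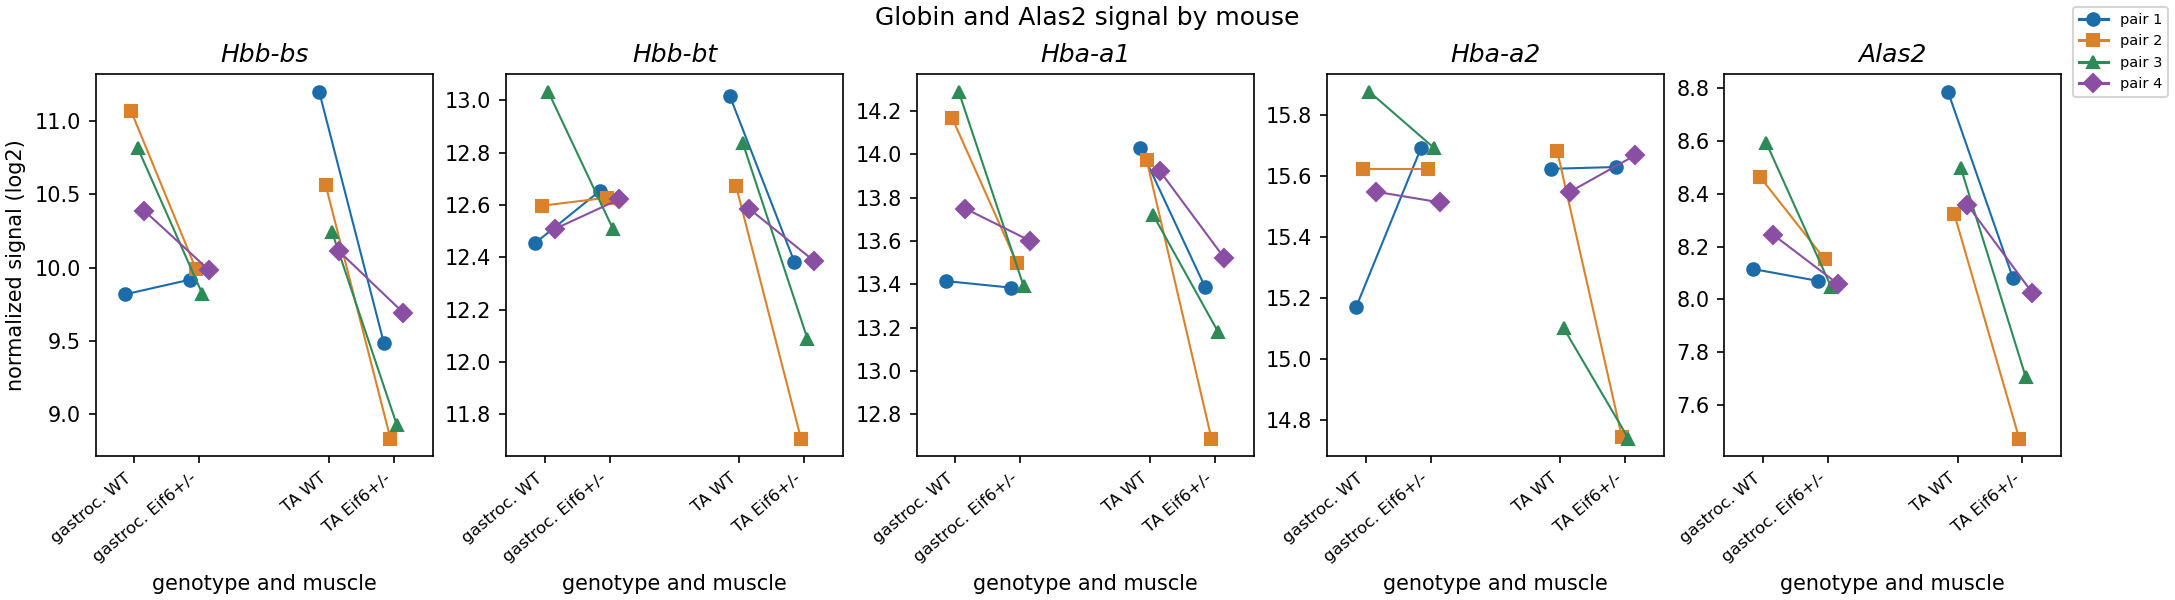
Normalized log2 signal (vertical axis, its own scale for each gene) of the globin genes and Alas2 in each mouse, with lines joining the mice of a pair. In gastrocnemius the Eif6+/- mice lie within 0.106 to 0.217 log2 units of each other for each gene and the WT mice within 0.477 to 1.25.

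The mice of a genotype differed in how far they lay apart. In gastrocnemius the 4 Eif6+/- mice lay close together for all 5 red cell genes (SD 0.048 to 0.102) and the WT mice farther apart (SD 0.214 to 0.547). In TA the Eif6+/- mice had SDs of 0.286 to 0.524 and the WT mice of 0.135 to 0.485. The narrow Eif6+/- group was thus seen in gastrocnemius and not in TA, and the difference in spread was not tested. In TA 4 of the 7 genes (Hbb-bs, Hbb-bt, Hba-a1 and Alas2) had groups that did not overlap, and in gastrocnemius 0 of 7 had. Over the kept genes the Eif6+/- mice lay below all WT mice for 904 of 12381 in TA (7.30%) and for 808 of 12609 in gastrocnemius (6.41%), and nothing is read from the TA count, since TA chose some of the 7 genes.

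The ratios of the red cell genes moved together over the 8 arrays. Among Hbb-bs, Hbb-bt, Hba-a1, Hba-a2 and Alas2 the 10 pairwise Pearson r ran from 0.756 to 0.982, the highest between Hbb-bt and Alas2. These r pool muscles with different means, and TA chose some of the genes. Within gastrocnemius r ran from 0.660 (Hbb-bs with Hbb-bt) to 0.956 and within TA from 0.588 to 0.980, over 4 arrays each. Between either calprotectin gene and the red cell genes r ran from −0.090 to 0.458. These values describe 8 arrays on 1 slide, and the globin probes may share transcripts. The promoters of 4 of these genes are shown as a description, from RefSeq, build GRCm38.p6, with capitals for the letters named above. Hbb-bs lies at chr7:103827929-103828178 and Hbb-bt at chr7:103813924-103814173, both on the minus strand, and Hba-a1 at chr11:32283422-32283671 and Alas2 at chrX:150547167-150547416, both on the plus strand.
Hbb-bs: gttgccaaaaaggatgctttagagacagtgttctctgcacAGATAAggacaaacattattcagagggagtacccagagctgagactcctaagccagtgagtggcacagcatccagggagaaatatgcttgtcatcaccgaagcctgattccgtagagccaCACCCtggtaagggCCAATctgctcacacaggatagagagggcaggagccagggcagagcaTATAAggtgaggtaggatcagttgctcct
Hbb-bt: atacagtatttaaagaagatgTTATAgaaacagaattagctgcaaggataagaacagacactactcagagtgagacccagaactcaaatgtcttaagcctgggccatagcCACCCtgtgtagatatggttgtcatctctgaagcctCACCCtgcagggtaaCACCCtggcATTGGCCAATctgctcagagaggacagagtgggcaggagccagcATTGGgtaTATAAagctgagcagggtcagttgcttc
Hba-a1: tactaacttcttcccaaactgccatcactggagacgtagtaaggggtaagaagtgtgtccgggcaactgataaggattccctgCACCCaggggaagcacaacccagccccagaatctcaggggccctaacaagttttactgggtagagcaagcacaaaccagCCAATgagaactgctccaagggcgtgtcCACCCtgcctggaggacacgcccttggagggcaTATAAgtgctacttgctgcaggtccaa
Alas2: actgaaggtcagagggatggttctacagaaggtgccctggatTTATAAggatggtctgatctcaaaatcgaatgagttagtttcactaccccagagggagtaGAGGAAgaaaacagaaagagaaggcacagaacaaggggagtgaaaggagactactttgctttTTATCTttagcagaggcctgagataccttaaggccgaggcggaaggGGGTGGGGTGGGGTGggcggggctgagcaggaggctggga
Hbb-bs held 1 GATA motif, 1 CACCC box, 1 CCAAT box and 1 TATA box. Hbb-bt held 3 CACCC boxes, 3 CCAAT boxes, of which a pair on opposite strands adjoin, and 2 TATA boxes, with no GATA motif. Hba-a1 held 2 CACCC boxes, 1 CCAAT box and 1 TATA box. Alas2 held 1 GATA motif, 3 CACCC boxes, 1 PU.1 motif and 2 TATA boxes that overlap on opposite strands, and no CCAAT box. The Hba-a2 promoter, at chr11:32296242-32296491 on the plus strand, is the same run shifted by 3 bases (247 of 247 bases alike). Hbb-bs and Hbb-bt had 127 of 249 bases alike at a single shift of −1 without gaps, which misses like stretches that lie at other offsets.

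The other genes on the red cell lists were mixed, and several of them are also made outside red cells, as named below. The globin list outside the 7 genes had 9 genes with a probe, of which 3 passed the filter in each muscle (Hbb-b2, Cygb and Mb), and limma and SAM called 0 in gastrocnemius, where 0 passed an unadjusted p under 0.05, with the embryonic genes Hbb-y and Hba-x never above background. In TA 2 were called lower, Hbb-b2 and Mb, the oxygen store of muscle fibres (−0.54 ± 0.45), which is also 1 of the muscle genes. As said above, the TA value of Hbb-b2 is not independent of the choice of genes, so nothing is read from its call. The TA mean of Mb was −0.33 without pair 4 and −0.31 with the deposited ratios. In gastrocnemius Mb had 1.98, −0.26, 0.38 and 0.22. The median of the 3 genes was −0.12 in gastrocnemius and −0.54 in TA, the latter being Mb itself.

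All 7 further genes of heme synthesis on the list passed the filter in both muscles. In gastrocnemius 3 rose, Alas1, the form of Alas2 used outside red cells (0.34 ± 0.08, higher on all 4 arrays, limma adjusted p 0.0480), Uros (0.36 ± 0.21) and Fech, which inserts the iron (0.26 ± 0.11), and Ppox fell (−0.34 ± 0.20). In TA 2 fell, Alad (−0.40 ± 0.24) and Ppox (−0.33 ± 0.14), and 0 rose by limma or SAM, with 2 above 0 at an unadjusted p under 0.05. Urod, high in signal, was not called (0.18 and 0.00). The median ratio was 0.20 in gastrocnemius and 0.01 in TA.

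Of 14 genes of the red cell membrane 7 passed the filter in gastrocnemius and 8 in TA. Ank1, the ankyrin of red cells that muscle also makes in a short form, fell in gastrocnemius (−0.53 ± 0.44). Without pair 2 its mean there was −0.31, and Ank1 was not called whichever pair was left out. Sptb, beta spectrin, fell in TA (−0.40 ± 0.25). Aqp1, a water channel of red cells and capillaries, rose in both muscles (0.45 ± 0.22 and 0.30 ± 0.10). The red cell membrane genes Epb42, Rhag and Rhd were never well above background in either muscle. Epb41, high in signal, was not called (0.23 and 0.16). Slc4a1 lay below 0 on all 4 arrays of each muscle, with means of −0.14 in both. It was well above background in 2 of 4 Eif6+/- and 3 of 4 WT mice of gastrocnemius, where it did not pass the filter. Its signals lay near background, so its ratios have no exact size, and it was not called in TA. Ermap (−0.06 and −0.15), Tmod1 (−0.34 and −0.20) and Gypc (0.01 and 0.10) were not called in either muscle. The median ratio was −0.06 in gastrocnemius and −0.15 in TA.

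Erythroid factors and maturation genes had 17 members with a probe, 13 kept in gastrocnemius and 12 in TA. By limma, by SAM and at an unadjusted p under 0.05 there were 0 lower in either muscle, while limma called 4 higher in gastrocnemius and 3 in TA. Hemgn, a nuclear protein of blood precursors, rose by 0.49 ± 0.25 and 0.51 ± 0.06. Its WT levels were at least 13.79 in gastrocnemius and 13.73 to 13.91 in TA, where those of Hbb-bt were 12.59 to 13.02. Which cells or transcripts gave the Hemgn signal was not tested, so nothing is read from its rise about red cell precursors. Tspan33, a tetraspanin of erythroid precursors, rose by 0.50 ± 0.21 and 0.25 ± 0.12. Tfrc, the transferrin receptor (0.24 ± 0.06), rose in gastrocnemius, and Xpo7 was called higher in TA, with 3 of 4 WT mice above background, so that its ratio has no exact size. Gfi1b, the other call in gastrocnemius, was well above background in 4 of 4 Eif6+/- and 0 of 4 WT mice, so it passed the filter through the Eif6+/- mice alone and its ratio has no exact size. Bpgm and Bnip3l, high in signal, were not called, with −0.05 and 0.11 in gastrocnemius. The list's median was 0.14 in gastrocnemius and 0.03 in TA. Gata1 and Klf1, the master factors of the red cell line, and Trim58 were never above background in either muscle.

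Of 12 genes that clear haemoglobin, heme and iron 10 passed the filter in each muscle. Lrp1, the receptor for hemopexin, fell in gastrocnemius (−0.78 ± 0.46, all 4 arrays below 0). In TA Blvra (−0.26 ± 0.13) and Hmox2 (−0.24 ± 0.15) fell and Fth1, the ferritin heavy chain, rose (0.21 ± 0.05). Blvra and Fth1 were not called whichever pair was left out. The other genes of high signal, Ftl1 and Trf, were not called, with −0.54 and −0.53 in gastrocnemius and 0.10 and 0.20 in TA. The median was −0.40 in gastrocnemius and −0.01 in TA, and by array it was −0.55, −0.08, −0.94 and −0.21 in gastrocnemius, with pairs 1 and 3 low as for the macrophage genes. At an unadjusted p under 0.05, 4 of the 10 were lower and 0 higher in gastrocnemius, and 3 lower and 1 higher in TA. Cd163, the haemoglobin receptor, is in both of these lists.

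Other cells of blood and vessels were covered by further lists. Of 18 platelet genes 8 passed in gastrocnemius and 6 in TA, with Ppbp called higher in gastrocnemius and Clec1b in TA. Both were well above background in 4 of 4 Eif6+/- mice and 1 of 4 WT mice of that muscle, so they passed the filter through the Eif6+/- mice alone and their ratios have no exact size. Pf4, the platelet gene of highest signal, had −1.18, 0.59, −1.36 and −0.07 in gastrocnemius, Itgb3 and Nrgn had means of −0.21 and 0.16 there, and Gp9, Gp1ba, Gp5, Gp6 and Tubb1 were never above background. Of 20 lymphocyte genes 7 passed in each muscle and limma and SAM called 0 in either, with 0 in gastrocnemius and 1 in TA at an unadjusted p under 0.05. Their medians were 0.01 and −0.04, and Cd4, Cd3e and Nkg7, the highest in signal, had gastrocnemius means of −0.08, 0.03 and 0.12. Of 13 eosinophil, basophil and mast cell genes 5 passed in each muscle. The mast cell proteases Cma1 and Tpsb2 fell in gastrocnemius (−0.47 ± 0.36 and −0.39 ± 0.12). Cma1 was called lower in TA, with 4 of 4 WT and 3 of 4 Eif6+/- mice above background. Its ratio therefore has no exact size there, and Cma1 was not called in TA whichever pair was left out. At an unadjusted p under 0.05 there were 4 lower in gastrocnemius and 2 in TA. Cpa3 and Mcpt4, high in signal, were not called, with −0.38 and −0.26 in gastrocnemius, and the list's median was −0.38 there and −0.15 in TA.

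All 15 endothelial genes passed the filter in both muscles. Cldn5, the tight junction protein of vessels (−0.63 ± 0.31 and −0.67 ± 0.33), Eng (−0.57 ± 0.13 and −0.44 ± 0.19) and Tie1 (−0.54 ± 0.31 and −0.49 ± 0.22) fell in both muscles, each with all 4 arrays of both below 0. In TA Pecam1 (−0.32 ± 0.19) and Emcn (−0.28 ± 0.15) fell as well. The genes of highest signal, Egfl7, Flt1 and Vwf, were not called, and the list's median was −0.04 in gastrocnemius and −0.11 in TA. The part of vessel RNA in the red cell values was not tested.

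Among the 16 muscle genes 4 fell and 1 rose in gastrocnemius, and 3 fell and 2 rose in TA. Desmin (Des) fell in both (−0.68 ± 0.42 and −0.49 ± 0.24). Myh1, the IIX myosin, rose in gastrocnemius (0.96 ± 0.64), where Pygm (−0.43 ± 0.19), Ckm (−0.37 ± 0.18) and Actn3 (−0.36 ± 0.16) fell, and Myh4, the IIB myosin (0.80 ± 0.25), and Tnnc2 (0.57 ± 0.28) rose in TA, where Mylpf fell (−0.34 ± 0.18). The list's medians were 0.03 and −0.04. These counts depend on the normalization. With loess alone 1 was called lower and 6 higher in gastrocnemius (median 0.23) and 3 lower and 5 higher in TA (0.21), and the deposited ratios gave the same counts (medians 0.26 and 0.23).

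For the lists whose counts at an unadjusted p under 0.05 are not given in full above, gastrocnemius had 1 lower and 1 higher among neutrophil genes, 1 and 4 among heme synthesis, 3 and 2 among red cell membrane, 0 and 6 among erythroid, 2 and 0 among receptor, 0 and 1 among platelet, 4 and 0 among endothelial and 6 and 4 among muscle genes. In TA they were 2 and 2 (neutrophil), 2 and 2 (heme synthesis), 2 and 1 (membrane) and 0 and 3 (erythroid). Receptor genes had 2 and 1 there, platelet genes 0 and 1, endothelial genes 5 and 0 and muscle genes 3 and 2. Globin genes had 2 and 0 in TA and lymphocyte genes 1 and 0. Eosinophil, basophil and mast cell genes had 0 higher in either muscle. Of all genes, 11.7% were lower at that threshold in gastrocnemius. The shares for higher genes and for TA are not given, so nothing is read from those counts, here or above.

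In all lists together 31 genes were called in gastrocnemius, of which 21 were still called without pair 1, 21 without pair 2, 0 without pair 3 and 0 without pair 4. In TA 32 genes were called, of which 2 (Hemgn and Myh4) were still called without pair 1, 11 without pair 2, 19 without pair 3 and 19 without pair 4. Some genes were not called whichever pair was left out. In gastrocnemius these were Ank1, Fech, Tfrc, Gfi1b and Mcemp1. In TA they were Camp, Cma1, Blvra, Fth1, Itgb2, S100b, Xpo7 and Clec1b. Hbb-b2 is counted among the 32 of TA, although its TA value is not independent of the choice of genes. Each called gene kept its sign under every normalization and background setting tried, but not every call held. Of the 31 in gastrocnemius 16 were called in all 6 of these settings and 2 in fewer than 3 (Tfrc and Ckm), and of the 32 in TA 14 were called in all 6, 6 in fewer than 3 (Aqp1, Hmox2, Fth1, S100b, Pecam1 and Emcn) and 2 of those in none (Hmox2 and S100b). The size moved by over 1.5 times in some setting for Itgb2 (to −0.95 in gastrocnemius and −0.50 in TA), Cma1 (to −1.001 in gastrocnemius), Ckm (to −0.15) and Actn3 (to −0.54) there, and for Mb, Aqp1 (to 0.12) and Tnnc2 (to 0.90) in TA, besides the genes whose ratios have no exact size. List medians that changed sign among these settings were those of neutrophil genes in both muscles, of lymphocyte genes in gastrocnemius, and of clearance, S100 and muscle genes in TA.

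Between the muscles limma called 0 of 22765 probes (0%) for a difference in the ratio, 1734 passed an unadjusted p under 0.05, and the lowest adjusted p was 0.270. SAM was not run for it. Calls made in 1 muscle alone, such as those of Cd74 or Alad, are therefore not shown to differ between the muscles, and the 5 red cell genes were among these probes, while S100a8 and S100a9 were not. Nothing more is read for the 5, since TA chose some of the 7 genes.

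Genes with the ratios most like those of S100a9, Hbb-bs and Alas2 over the 8 arrays were sought among genes kept in both muscles, as a description. For S100a9, among 12200 genes, they were Luc7l (r = 0.964), Obsl1 (0.958), Smap1 (0.950), Scp2 (0.944) and Eid2 (0.931). Their ratios spanned 0.12 to 0.46 log2 units over the arrays, far less than those of S100a9. For Hbb-bs, among 12199 genes, they were Rnpepl1 (0.994), Gpx4 (0.956), Hbb-b2 (0.952), Farp2 (0.946) and Hsdl1 (0.943). For Alas2 they were Hbb-bt (0.982), Syvn1 (0.953), Zfp874b (0.950), Napb (0.950) and Mical3 (0.942). Nothing is read from them about shared function or control.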

How the data were processed

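RNA of gastrocnemius and TA was measured on 8 Agilent arrays. The authors deposited spot intensity values per array (Feature Extraction, not normalized) and a table of log2 ratios. The deposited log2 ratios matched loess-normalized ratios of uncorrected intensities (r 0.999963 to 0.999996), although the methods name quantile normalization. In gastrocnemius (pairs 1 to 4) the columns of that table had medians of 0.00257, 0.000831, −0.00441 and 0.00375, and in TA of 0.00138, −0.000366, 0.00288 and 0.00212.

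Median spot intensities (the files hold no mean) were corrected with limma's normexp (offset 50), normalized by loess within arrays with controls at weight 0 and by quantiles across 16 channels. Control and outlier spots were left out and the spots of a probe averaged. Probes that rose well above background on each of the 4 arrays of a muscle (1 channel sufficed) were tested with lmFit and eBayes against 0 (limma 3.58.1, R 4.3.3), with Benjamini-Hochberg adjustment over all kept probes and a threshold of 0.1. SAM used all 16 sign changes. Of 28685 probes with a RefSeq accession 27235 were named. The brightest probe stood for a gene. Figures were drawn with matplotlib 3.10.9 (Python 3.11.15).

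The members and lists were chosen with earlier results of these data known. Named are the 7 genes and Eif6, of each list the called genes (at most 5 a muscle) and the 3 of highest signal, and the 5 genes most like S100a9, Hbb-bs and Alas2. List genes named beyond that were chosen after their values were seen. Among them are Alox5ap, Chil3, Clec4d, Slpi, Lyz2, Adgre1, Slc4a1, Ermap, Tmod1 and Gypc. The same holds for the TA values of genes called in gastrocnemius alone and for genes never above background. The lists were globins, heme synthesis, red cell membrane, erythroid factors, haemoglobin and heme clearance, neutrophil, S100 family, calprotectin receptors, platelet, lymphocyte, monocyte and macrophage, eosinophil with basophil and mast cell, endothelial and skeletal muscle. A few genes were left out of the heme synthesis, red cell membrane, erythroid and platelet lists afterwards, for reasons unrelated to their values. The alternatives were other normalizations, background settings, signals and filters, each array left out, SAM, a threshold of 0.05 and the pair number as a replicate block. The share of probes well above background was 43.6% to 48.6% in Cy5 and 38.7% to 46.0% in Cy3, and no spot was saturated. Both tests were also tested on simulated data, where limma called most probes changed by 1 or more log2 units and SAM, with its 16 sign changes, had a median q above the threshold at every size of change. On the arrays themselves SAM called 1554 probes in gastrocnemius and 376 in TA.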

Additional observations from a re-analysis of the deposited data

Results flagged for a closer look

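In 12 of 210 groups of 4 arrays of a muscle 1 array lay far from the other 3 for a named gene, by Dixon's criterion for 4 values. Chance gives about 1 in 20 such groups. None of the 7 genes was among them.

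In gastrocnemius these were the log2 ratios of Alas1 in pair 1 (0.46), Pecam1 in pair 1 (0.13), Urod in pair 2 (−0.054), Ank1 in pair 2 (−1.17), S100a11 in pair 3 (−0.97) and Fth1 in pair 4 (0.28). In TA they were those of Xpo7 in pair 2 (0.42), Nkg7 in pair 2 (0.29), Mcpt4 in pair 2 (−1.06), Fth1 in pair 3 (0.28), Sptb in pair 4 (−0.039) and Ckm in pair 4 (0.41). The cause was not tested.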

How the results depend on the processing

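Of 168 log2 ratios of the 7 genes under alternatives (28 of them under filter settings, which leave a ratio as it is) 155 kept their direction and side of the threshold (or stayed within the spread), 6 newly passed it, 4 moved farther and 3 changed sign. Of 60 counts of calls 19 moved by over 1.5 times or from 0. Of the 7 genes 1 was called in gastrocnemius with loess alone (Hba-a1), 1 without background correction (Hbb-bs) and 1 with the deposited ratios (Hba-a1), against 0, and 0 to 3 with an array left out. Over all probes 3232 of 23802 were called with loess alone, 3396 without background correction and 3303 with the deposited ratios. All probes called in gastrocnemius (3275) numbered 1080 at an adjusted p under 0.05, 1554 by SAM and 0 to 2955 with an array left out. Those in TA (3555) numbered 2293 with normexp offset 0, 1781 with Agilent's signals, 5585 with no filter, 1393 at an adjusted p under 0.05, 376 by SAM and 113 to 3581 with an array left out. Between the muscles (0) 1 was called with Agilent's signals, 1 with no filter, 0 with the replicate block and 0 to 0 with an array left out. The sign changed for Hbb-bt in gastrocnemius without pair 3 (−0.13 to 0.11 with an array left out) and for Hba-a2 there with Agilent's signals (−0.23) and without pair 1 (−0.073 to 0.16). The cause was not tested. No setting shifted the median of all probes by over 0.1. Each of the 7 genes has 1 probe, so averaging probes changes nothing. One-class SAM was not run between the muscles. Signal over background limits S100a8, whose ratio in gastrocnemius ran from −2.34 to −0.65 over the normalization, background and filter settings and was −0.29 without pair 3.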

Other observations

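The labels number the pairs 1 to 4 in both muscles without saying whether they are the same mice. Over all probes, arrays of the same number had correlations of −0.356 to 0.0896 between the muscles. Of the 8 arrays, 0 were most like the array of their own number in the other muscle, so the numbers were not treated as the same mice.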
